A study of Homo sapiens with 74 samples.

Results

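The genes that encode mitochondrial ribosomal proteins (MRPs) were examined for Cut&Run peaks of zinc-finger proteins (ZFPs) at their promoters. Members were the nuclear protein-coding genes whose symbols are MRPL or MRPS followed by a digit, 78 of 20015 genes in GENCODE 44, an annotation of the hg38 genome. Of these, 49 encode proteins named for the large subunit and 29 proteins named for the small subunit. Peaks were mapped in HEK293T cells, a human embryonic kidney line, that had been transfected with a plasmid carrying the ORF of a single ZFP with a C-terminal V5 tag behind the EF1-alpha promoter. After 48 h, a V5 antibody directed micrococcal nuclease to the tagged protein on native chromatin, and un-transfected cells that went through the same V5 procedure (V5 mock IP) were the control. Peak lists of 36 ZFPs were used with 2 biological replicates per ZFP, each replicate from its own well. All groups share the cell line, the antibody and the time point. The tagged ZFPs are exogenous, and peaks can reflect direct or indirect contact with DNA. The mock IP samples enter only as the authors' control, with no list of their own here.

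Mitochondria keep their own ribosome, which translates the few mRNAs of the mitochondrial genome into core subunits of the respiratory chain and of ATP synthase. Its rRNAs come from mitochondrial DNA, but every protein of the particle is encoded in the nucleus, made in the cytosol and imported. The promoters of these nuclear genes are mostly those of housekeeping genes, many of them CpG-rich and some of them shared head to head with another gene, and NRF1, GABP (an ETS factor) and YY1 are known regulators of nuclear genes for mitochondrial proteins. A mitoribosome consists of a small subunit that reads the mRNA and a large subunit that forms the peptide bond.

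The sequence around the strongest peak is shown for MRPS18B, MRPL55, MRPL54 and MRPS12, the 4 members with both-replicate peaks of the most ZFPs, where ties were settled by the number of ZFPs with any peak and then by fold. Each stretch spans up to 60 bases to either side of the summit, the position of highest signal, is read from hg38 on the strand of the MRP gene and leaves out annotated UTRs. Capitals mark matches on either strand to any of 8 words. Those of known activators were CGCANGCG, the core bound by NRF1, then CCGGAAG, which is the core of ETS factors, and ATGGCGG as the core of YY1. GGGCGG, also called the GC box, and CCAAT, from the box of that name, came next, followed by TATAAA for the TATA box. The list ends with ACTACAA for the core of ZNF143 and with AGGNGGC for a part of the CTCF core. Matches may share bases, and a match is a description, not a bound site. The MRPS18B stretch (chr6:30617394-30617514, plus strand) surrounds the summit of ZNF22 replicate 1 in an intron of PPP1R10 and holds 1 match each to the GC box, the part of the CTCF core and the NRF1 core. The MRPL55 stretch (chr1:228109334-228109454, minus strand) surrounds the summit of CISD1 replicate 1 just upstream of the gene and holds 4 matches to the GC box. The MRPL54 stretch (chr19:3762814-3762934, plus strand) surrounds the summit of ZNF22 replicate 1 downstream of the canonical TSS and holds 2 matches to the NRF1 core. The MRPS12 stretch (chr19:38930638-38930736, plus strand) surrounds the summit of CISD1 replicate 1 on a coding exon of the neighbouring gene SARS2 and holds 0 matches to these words.
MRPS18B: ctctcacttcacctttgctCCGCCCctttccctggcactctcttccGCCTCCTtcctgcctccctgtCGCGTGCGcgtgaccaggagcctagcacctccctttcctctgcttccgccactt
MRPL55: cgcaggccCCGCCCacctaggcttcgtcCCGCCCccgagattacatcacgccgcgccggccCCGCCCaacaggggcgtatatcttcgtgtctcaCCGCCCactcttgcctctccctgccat
MRPL54: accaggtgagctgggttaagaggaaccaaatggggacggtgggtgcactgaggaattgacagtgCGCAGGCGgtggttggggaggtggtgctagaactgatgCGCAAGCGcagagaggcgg
MRPS12: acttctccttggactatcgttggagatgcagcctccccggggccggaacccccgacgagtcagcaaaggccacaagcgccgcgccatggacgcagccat

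The 72 lists held 92122 peaks, from 15 to 8702 per list with a median of 631. The read total of each library is not in the files used here, and the length of its list stands in for yield. In 6 libraries no peak lay on an exon of the gene whose ORF was transfected, where reads of the plasmid align. These were MBNL1 replicate 1, TRIM55 replicate 2 and both replicates of U2AF1 and of ZMAT5. Counts that lead the description are therefore also given without them. A peak was counted for a gene where its nearest edge lay within 1 kb of any annotated TSS of that gene.

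A peak was found at 58 of 78 MRP genes (74.4%) in at least 1 library. The same count over all nuclear protein-coding genes was 11164, or 55.8%. The member count was 52 without replicate 2 of each ZFP and 32 without replicate 1, where all genes gave 51.0% and 35.5%. With only peaks of a q-value under 0.0001 it was 30 (38.5%, against 29.5% of all genes). MRP promoters are often CpG-rich, here a GC content of at least 55% and an observed-over-expected CpG ratio of at least 0.65 in the 1001 bp around the canonical TSS. This held for 47 MRP genes (60.3%) and for 56.4% of all genes, and among all genes with such a promoter 76.9% had a peak, against 80.9% of the CpG-rich MRP genes. Of the 31 members whose promoters did not meet the criterion, 20 had a peak (64.5%), against 28.4% of the 8724 such genes. These classes differ in composition, since the median CpG ratio was 0.715 in the 31 members and 0.335 in all genes outside the criterion, with a median GC content of 53.1% and 52.6%. The part of composition in these shares was not tested. Without the 6 libraries that lacked a peak on their own gene, 55 MRP genes (70.5%) and 11014 of all genes had a peak. The study states that Cut&Run sets of 36 ZFPs passed its quality control. It lists no Cut&Run target genes for CPSF4, MBNL1, SNRPC, TRIM55, ZC3H3 and ZMAT5, and whether the sets of these 6 passed is not stated. Without these 6 ZFPs 51 MRP genes had a peak (65.4%), as did 54.5% of all genes.

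Peaks in both replicates of the same ZFP were found at 17 MRP genes (21.8%), against 16.7% of all genes. Among CpG-rich promoters the shares were 25.5% of the MRP genes and 25.2% of all genes, and among the other promoters 16.1% and 5.56%. These 17 were MRPL11, MRPL14, MRPL17, MRPL18, MRPL27, MRPL34, MRPL38, MRPL40, MRPL54, MRPL55 and MRPL58 of the large subunit and MRPS12, MRPS18B, MRPS24, MRPS27, MRPS34 and MRPS35 of the small subunit. The count was also 17 without the 6 libraries, and without the 6 ZFPs that have no listed target genes. These 17 genes gave 34 combinations of a member and a ZFP, and the peaks of the replicates overlapped in 28 of them. At MRPL14 and MRPL18 the peaks of the replicates did not overlap, which left 15 genes (19.2%, against 13.7% of all genes) when an overlap of at least 1 bp was required. At a q-value under 0.0001, 6 members had both-replicate peaks (7.69%, against 4.72% of all genes). The median MRP gene had peaks of 1 ZFP, as did the median of all genes.

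Grouped by symbol, the genes were hit at nearly the same rate, with 37 of 49 MRPL genes (75.5%) and 21 of 29 MRPS genes (72.4%). Both-replicate peaks were found at 11 (22.4%) and 6 (20.7%) of them. The symbols were not checked against the subunit that holds each protein. Of 29 MRPs that have no counterpart in the bacterial ribosome, 24 had a peak (82.8%), and of the 49 other members 34 did (69.4%), beside 55.8% of all genes. Both-replicate peaks were found at 24.1% and 20.4% of these classes, beside 16.7% of all genes. This grouping was added after the data were seen and was not tested.

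Members differed widely in how many ZFPs had a peak there. At least 3 ZFPs had a peak at 31 MRP genes (39.7%), against 30.6% of all genes. Among CpG-rich promoters this held for 48.9% of the MRP genes and 45.9% of all genes, and among the other promoters for 25.8% and 10.8%. At least 10 ZFPs had a peak at 5 MRP genes (6.41%), against 2.25% of all genes, and among CpG-rich promoters the shares were 4.26% and 3.58%. Among the other promoters they were 9.68%, which is 3 of 31 members, and 0.539%. The order among CpG-rich promoters was the opposite in between. At least 5 ZFPs had a peak at 12.8% of the CpG-rich MRP genes and 25.3% of all CpG-rich genes, and at least 8 ZFPs at 6.38% and 8.65%. Both-replicate peaks of at least 2 ZFPs were found at 8.51% and 11.7%. Among the other promoters the same 3 measures gave 25.8% of the MRP genes against 4.97% of all genes, 12.9% against 1.47% and 9.68% against 2.14%. These 5 were MRPS18B, MRPL55 and MRPL54 with 11 ZFPs each, and MRPS12 and MRPL40 with 10. The promoters of MRPS18B, MRPL55 and MRPL54 did not meet the CpG-rich criterion. MRPS36 followed with 9 ZFPs and MRPL34 with 8.

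**Figure D1:**
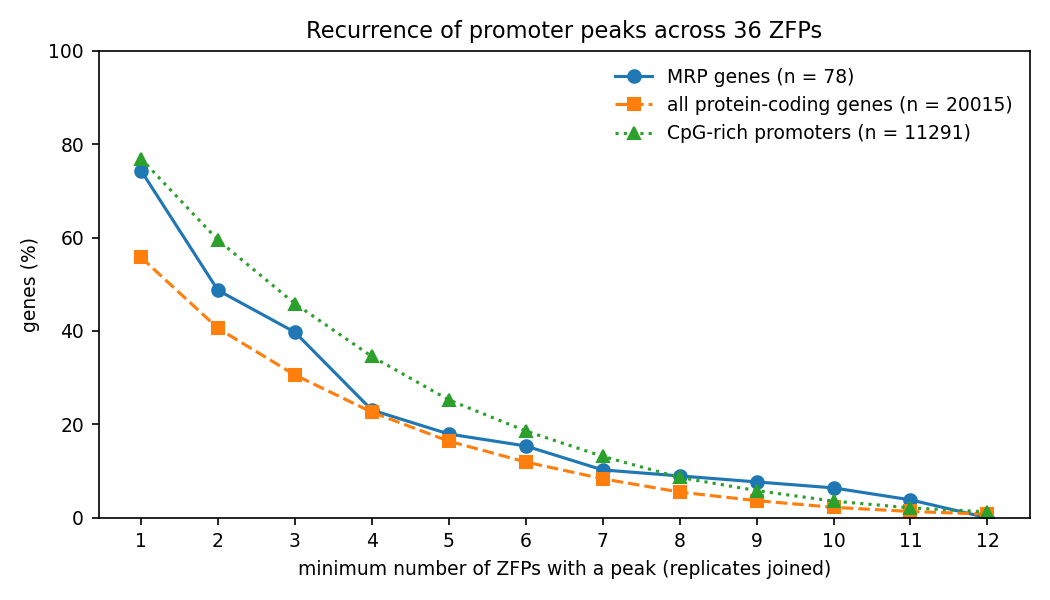
Share of genes (y axis, percent) with peaks of at least the number of ZFPs on the x axis, replicates joined, for the 78 MRP genes, all 20015 nuclear protein-coding genes and the 11291 genes with CpG-rich promoters. The curve of MRP genes includes members whose promoters are not CpG-rich; it started at 74.4% and that of the CpG-rich genes at 76.9%, and no MRP gene reached 12 ZFPs, as 0.799% of all genes did.

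By ZFP, the peaks at MRP genes came mostly from long lists. They were called in 30 libraries of 20 ZFPs, and 16 ZFPs had none. In all there were 247 peaks, 2 of which counted for a pair of members. The 6 ZFPs with the most members, APEX2, CISD1, G2E3, ZNF22, CTCF and PHF7, held 71.3% of these peaks, and also 72.4% of the peaks at all protein-coding promoters. The shares that follow join both replicates and carry exact 95% binomial intervals, which cover counting error only. Since 31 of the 78 members have no CpG-rich promoter, the share of the 47 that do is set beside that of all genes with CpG-rich promoters.

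APEX2, an abasic-site endonuclease, had peaks at 29 MRP genes, or 37.2% (26.5 to 48.9%). Over all genes the share was 27%. Among CpG-rich promoters it was 36.2% of the MRP genes and 39.7% of all genes. There were 21 members in replicate 1 and 16 in replicate 2, and 8 in both (10.3%, against 8.28% of all genes). The replicates therefore shared fewer genes than either called.

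CISD1, an iron-sulfur protein of the outer mitochondrial membrane, had the longest single list (8702 peaks in replicate 1) and peaks at 25 members (32.1%, 21.9 to 43.6%). All genes gave 27.6%, and among CpG-rich promoters the shares were 31.9% of the MRP genes and 40.7% of all genes. Its replicates differed, with 21 and 8 members, and 4 were in both, against 4.76% of all genes. G2E3, a ubiquitin ligase with PHD fingers, had peaks at 22 members (28.2%, 18.6 to 39.5%), where all genes gave 21.6%. Among CpG-rich promoters these were 36.2% of the MRP genes and 32.5% of all genes. Its replicates held 11 and 15 members and shared 4, against 5.1% of all genes.

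ZNF22, a C2H2 ZFP, also had peaks at 22 members, while all genes gave 25.8%. Its shares among CpG-rich promoters were 29.8% of the MRP genes and 38.1% of all genes. Replicate 1 held 20 members, replicate 2 held 7, and 5 were in both, against 4.75% of all genes. PHF7, a PHD-finger protein, had peaks at 19 members (24.4%, 15.3 to 35.4%), against 23.4% of all genes, and among CpG-rich promoters 31.9% of the MRP genes against 35%. All 19 were in replicate 1 and only MRPS12 was also in replicate 2, whose list was much shorter (729 peaks against 6284). Over all genes, 1.07% had PHF7 peaks in both replicates.

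CTCF, which organises chromatin loops and is the best-known DNA-binding ZFP of the set, had peaks at 20 members (25.6%, 16.4 to 36.8%). All genes gave 13.4%, and among CpG-rich promoters the shares were 23.4% of the MRP genes and 19.1% of all genes. The members numbered 15 in replicate 1 and 11 in replicate 2, and 6 were in both (7.69%), against 3.44% of all genes. CPSF4, a subunit of the pre-mRNA cleavage and polyadenylation complex and among the ZFPs with no listed target genes, had peaks at 12 members (15.4%, 8.21 to 25.3%), against 8.06% of all genes. Among CpG-rich promoters it was 10.6% of the MRP genes against 12.1%. Its replicates held 10 and 4 members and shared MRPL54 and MRPS18B, and 0.864% of all genes were shared. Compared within CpG-rich promoters, the MRP share was above that of all genes for CTCF and G2E3 and below it for APEX2, CISD1, ZNF22, PHF7 and CPSF4. For members without a CpG-rich promoter the share was above that of such genes for all 7 of these ZFPs. It was 38.7% against 10.6% for APEX2, 32.3% against 10.6% for CISD1, 16.1% against 7.51% for G2E3 and 25.8% against 9.95% for ZNF22. CTCF gave 29.0% against 6.04%, PHF7 12.9% against 8.51% and CPSF4 22.6% against 2.88%. None of these differences was tested, and the members outside the criterion have the higher CpG ratio given above.

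Shorter counts were found for 4 more ZFPs. GIN1 had 9 members (11.5%) against 13.8% of all genes, and among CpG-rich promoters 10.6% of the MRP genes against 20.6%. Of the 9, 3 were in both replicates (2.31% of all genes). SNRPC, a protein of the U1 snRNP that also has no listed target genes, had 8 members (10.3%), all in replicate 1, against 4.66% of all genes, and 12.8% against 7.18% among CpG-rich promoters. TEX13A had 7 members (8.97%) against 7.09% of all genes, with MRPL55 in both replicates (0.385% of all genes). Within CpG-rich promoters its order was the opposite, 6.38% of the MRP genes against 10.5%. ZMAT3, an RNA-binding p53 target, also had 7 members, against 5.24% of all genes, and 8.51% against 7.85% among CpG-rich promoters. Among promoters that are not CpG-rich, the MRP share was 12.9% against 5.03% for GIN1, 6.45% against 1.40% for SNRPC, 12.9% against 2.65% for TEX13A and 9.68% against 1.87% for ZMAT3. The other 9 ZFPs with any member had 1 to 4 of them, none in both replicates. The shares were 5.13% against 2.39% of all genes for TRIM55, 5.13% against 4.08% for ZC3H3 and 3.85% against 0.605% for CPSF4L. RNF113A gave 3.85% against 4.69% and the libraries labelled U2AF1 2.56% against 1.05%. BRCA1, LIN28B, ZMAT5 and ZNF593 had 1.28% each, against 1.07%, 0.684%, 1.16% and 2.56% of all genes.

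**Figure D2:**
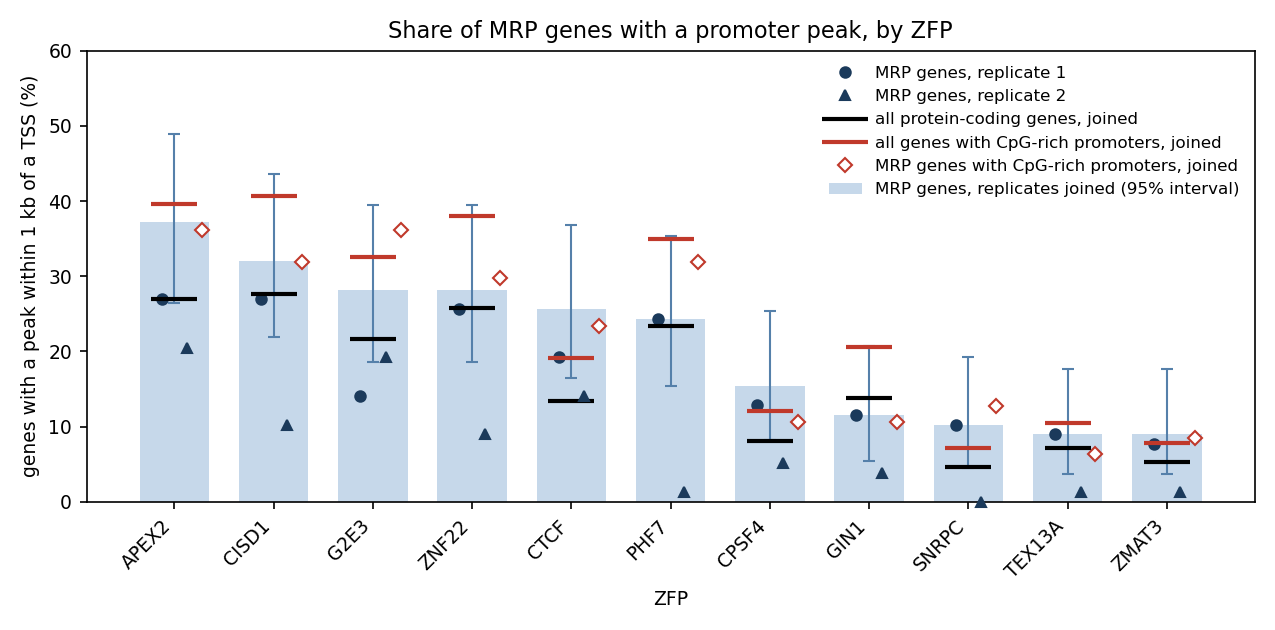
Share of MRP genes with a peak within 1 kb of a TSS (y axis, percent) for the 11 ZFPs with at least 7 such genes (x axis). Bars join the replicates with exact 95% binomial intervals, circles and triangles are replicates 1 and 2, black marks are all genes, and open diamonds and red marks are MRP genes and all genes with CpG-rich promoters (all joined). The diamonds of G2E3 (36.2%), CTCF (23.4%), SNRPC (12.8%) and ZMAT3 (8.51%) stand above their red marks and those of APEX2, CISD1, ZNF22, PHF7, CPSF4, GIN1 and TEX13A below.

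The signal of these peaks was modest. Fold is the authors' ratio of a library's signal to the mock IP at the summit, and percentiles and ranks were taken within a list. Folds of different lists stand side by side as listed values and were not tested against each other, since the read totals are not known. The 247 peaks had a median fold of 5.26, from 2.00 to 13.5, and the median over all promoter peaks was 5.08. A peak at an MRP gene stood at a median percentile of 55.6 among the promoter peaks of its own list, and all promoter peaks at 50.3. Folds near 2 came only from TRIM55 replicate 2 (MRPL13, MRPL17, MRPL40 and MRPL50) and ZMAT5 replicate 2 (MRPS15), both among the libraries without a peak on their own gene. A library without a listed peak has no value at that gene, which is not the same as a fold of 0.

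**Figure D3:**
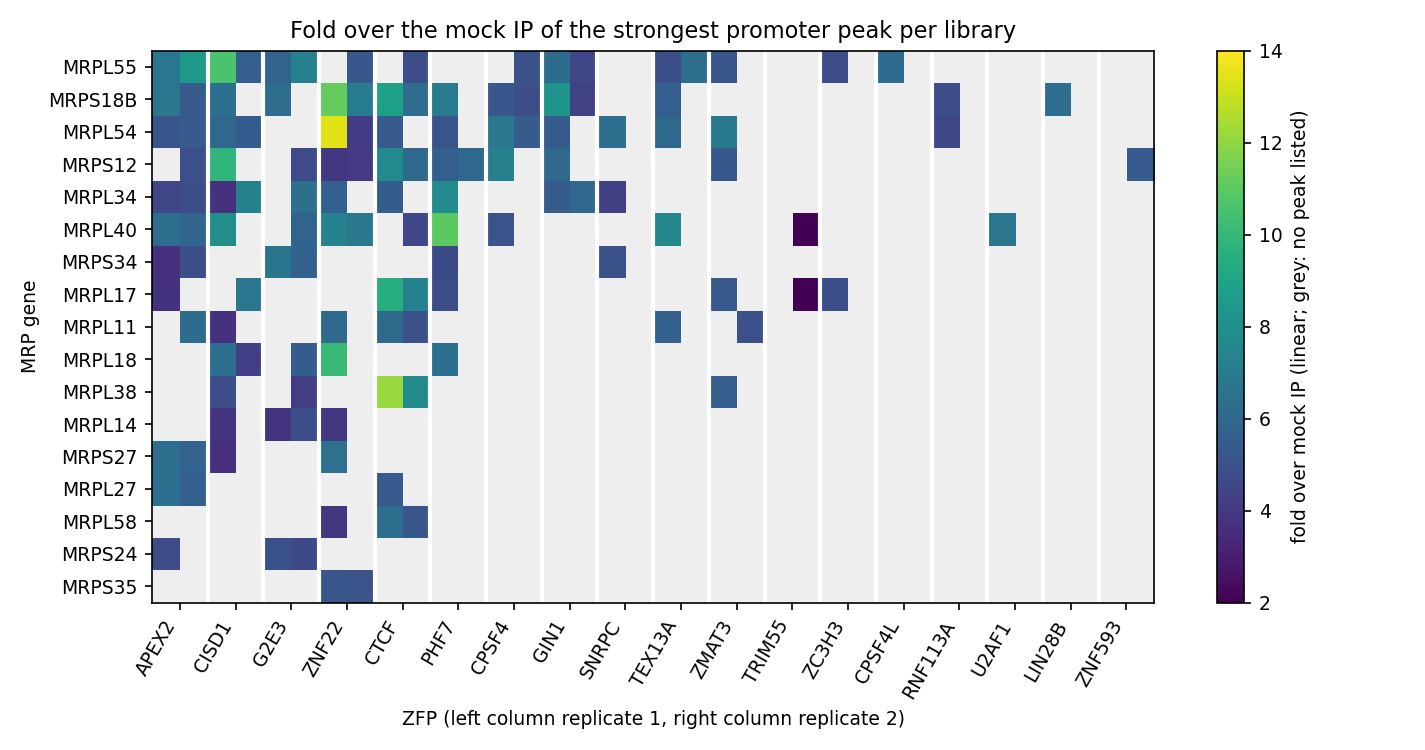
Highest fold over the mock IP (colour, linear scale from 2 to 14) at the 17 MRP genes with peaks in both replicates of a ZFP (rows), in the replicate pair of each ZFP with a peak there (columns; U2AF1 is the label of its libraries). Grey means that no peak is listed; the brightest cells are MRPL54 in ZNF22 replicate 1 (13.5) and MRPL38 in CTCF replicate 1 (12.2).

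Among large-subunit genes, MRPL55 had peaks in 16 libraries. In APEX2 the folds were 6.73 and 8.48 in replicates 1 and 2, and in CISD1 10.6 and 5.59. G2E3 gave 5.82 and 7.22, and TEX13A 4.89 and 6.34. GIN1 gave 6.22 and 4.56 with the higher of its peaks in replicate 1. Both replicates were thus called for 5 ZFPs, though the G2E3 peaks of the replicates did not overlap and neither did those of GIN1, and MRPL55 had the highest lower-of-2-replicates fold among the members in APEX2, CISD1 and G2E3. Single replicates of CPSF4 (4.96), CPSF4L (6.17), CTCF (4.90), ZC3H3 (4.85), ZMAT3 (5.17) and ZNF22 (5.26) also had peaks. No other protein-coding gene had an opposite-strand TSS within 1 kb, and all 17 peaks were nearest to MRPL55. Their summits lay from 592 bp upstream to 2 bp downstream of the nearest of its 24 annotated TSSs, and several fell within the stretch with the GC boxes shown above.

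MRPL54, a large-subunit protein without a bacterial counterpart, had peaks in 15 libraries. In ZNF22 the fold was 13.5 in replicate 1, the highest value listed at any member and rank 12 among the 4424 promoter peaks of that list, but 4.06 in replicate 2. CPSF4 gave 6.81 and 5.47, CISD1 5.99 and 5.48, and APEX2 5.20 and 5.44. So the peaks of 4 ZFPs were found in both replicates, with listed folds closer to each other in CISD1 and APEX2 than in ZNF22. Single libraries of ZMAT3 (6.87), SNRPC (6.38), TEX13A (6.03), GIN1 (5.46), CTCF (5.43), PHF7 (5.11) and RNF113A (4.61) also had a peak. Apart from the CTCF peak and a second PHF7 peak upstream, the summits lay 4 to 262 bp downstream of the TSS, in the first exon or intron.

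MRPL40, which lies in the chromosome 22 region deleted in DiGeorge syndrome, had peaks of 10 ZFPs. APEX2 gave folds of 6.34 and 5.92 and ZNF22 7.39 and 6.82, and the highest listed fold was 10.97 in PHF7 replicate 1, rank 18 of 4381, with no peak in replicate 2. Further peaks were found in CISD1 replicate 1 (7.92), TEX13A replicate 1 (7.57), the library labelled U2AF1 replicate 1 (6.69), G2E3 replicate 2 (5.86), CPSF4 replicate 1 (5.09), CTCF replicate 2 (4.57) and TRIM55 replicate 2 (2.00). The nearest annotated TSS of HIRA, a histone chaperone gene on the other strand, is 812 bp away. Most summits lay in introns of HIRA and of C22orf39, and 3 of the 14 peaks, 1 each of CISD1, PHF7 and TEX13A, were nearest to another gene.

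MRPL38 carried the strongest CTCF peaks, at chr17:75904820-75905416 in replicate 1 and chr17:75904923-75905374 in replicate 2 (hg38). The folds were 12.2 in replicate 1, rank 21 of 1981 promoter peaks, and 7.74 in replicate 2, rank 102 of 1051. Both summits lay within 1 bp of a TSS. Weaker peaks were found in ZMAT3 replicate 1 (5.65), CISD1 replicate 1 (4.83) and G2E3 replicate 2 (4.16).

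The other members with CTCF peaks in both replicates belonged to both subunits. MRPL17, a homologue of bacterial L17, had folds of 9.45 and 7.27, with summits 112 and 75 bp upstream of its TSS. MRPS18B had 8.82 and 6.30, and MRPS12 had 7.76 and 6.08. MRPL58, a peptidyl-tRNA hydrolase that became part of the large subunit, had 6.35 and 5.21 with both summits at the same base, 25 bp downstream of the TSS. MRPL11, at the base of the stalk that recruits translation factors, had 6.13 and 4.99. In these 6 genes the listed fold was the higher one in replicate 1, whose list holds 3198 peaks against 1740 in replicate 2.

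MRPL34 had peaks of 8 ZFPs at several of its TSSs, with summits spread over 14126 bp, so a match to the gene did not mean the same site. In APEX2 the peaks of both replicates overlapped (4.45 and 4.87) within ABHD8, a gene on the other strand. In CISD1 (3.71 and 7.27) and GIN1 (5.43 and 5.97) the replicates had peaks at different positions. MRPL18, which is encoded next to the chaperonin gene TCP1, also had separate CISD1 peaks in the replicates (6.39 and 4.25), and a ZNF22 peak of fold 10.1 in replicate 1. MRPL14 had G2E3 folds of 3.83 and 4.89 at separate positions. MRPL27, whose bacterial counterpart reaches to the peptidyl transferase centre, had overlapping APEX2 peaks with folds of 6.36 and 5.57.

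Among small-subunit genes, MRPS18B, a member of the S18 family, had peaks in 16 libraries. ZNF22 gave folds of 11.2 and 7.02, CTCF 8.82 and 6.30, and GIN1 8.22 and 4.36. APEX2 gave 6.76 and 5.45, and CPSF4 5.26 and 4.82. All 5 of these ZFPs thus had peaks in both replicates. Single replicates of PHF7 (6.92), CISD1 (6.38), G2E3 (6.31), LIN28B (6.31), TEX13A (5.56) and RNF113A (4.82) also had a peak. All 16 summits lay in an intron of PPP1R10, which encodes a nuclear targeting subunit of protein phosphatase on the other strand. The closest TSSs of the pair of genes are 596 bp apart. Of the 16 peaks, 8 were nearest to an MRPS18B TSS. Both APEX2 replicates, CISD1 replicate 1 and CTCF replicate 1 had the summit at the same base, 456 bp upstream of MRPS18B.

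MRPS12, the counterpart of the bacterial S12 protein at the decoding centre, had peaks of 10 ZFPs in 13 libraries. CTCF gave folds of 7.76 and 6.08, PHF7 5.58 and 6.06, and ZNF22 3.96 and 4.04. Its highest listed fold was 9.92 in CISD1 replicate 1. CPSF4 replicate 1 (7.25), GIN1 replicate 1 (6.17), ZNF593 replicate 2 (5.46), ZMAT3 replicate 1 (5.29), APEX2 replicate 2 (4.91) and G2E3 replicate 2 (4.81) had single peaks. The gene is paired with SARS2, the mitochondrial seryl-tRNA synthetase, whose nearest annotated TSS is 181 bp away. Of the 13 peaks, 4 were nearest to MRPS12, and most summits lay on SARS2, so these peaks could not be assigned to either of the genes.

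MRPS34, which stabilises the small subunit, had both-replicate peaks of APEX2 (3.73 and 4.87) and G2E3, where the overlapping peaks had folds of 6.64 and 4.86 and a separate peak of replicate 2 had 5.70, next to EME2 on the other strand. MRPS27, a pentatricopeptide repeat protein, had APEX2 folds of 6.36 and 5.75 at an internal TSS, and its ZNF22 peak (6.50) lay at the TSS shared with PTCD2. MRPS24 had G2E3 folds of 5.03 and 4.63, and MRPS35 had ZNF22 folds of 5.20 and 5.08. MRPS36, a protein also assigned to the alpha-ketoglutarate dehydrogenase complex, showed the opposite pattern. It had peaks of 9 ZFPs, each in a single replicate, with folds from 4.80 in GIN1 to 7.25 in CPSF4. Of these 9 peaks, 8 were in replicate 1 and that of BRCA1 (5.31) in replicate 2.

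No peak was found at 20 members. These were MRPL2, MRPL3, MRPL15, MRPL16, MRPL20, MRPL22, MRPL23, MRPL32, MRPL35, MRPL39, MRPL47 and MRPL52 among the MRPL genes and MRPS9, MRPS14, MRPS17, MRPS18A, MRPS21, MRPS25, MRPS30 and MRPS31 among the MRPS genes. MRPS18A is a paralogue of MRPS18B, the member with peaks of 11 ZFPs, and the third paralogue, MRPS18C, had a single peak. A further 20 members had peaks of exactly 1 ZFP (25.6%, against 15.2% of all genes), and among CpG-rich promoters the shares were 21.3% and 17.4%, and among the other promoters 32.3% and 12.3%. Read totals per library are not known, so a lack of peaks means only that none passed the authors' threshold.

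Many MRP genes share their promoter region with another gene. An opposite-strand protein-coding TSS lay within 1 kb of a TSS of 33 members (42.3%) and of 17.7% of all protein-coding genes. Of these 33 members 29 had a peak (87.9%), and of the 45 others 29 did (64.4%). Over all genes the shares with a peak were 78.9% with such a TSS and 50.8% without. Among CpG-rich promoters, 42.6% of the MRP genes and 21.9% of all genes had such a TSS, and among the other promoters 41.9% and 12.4%. Of the CpG-rich MRP genes with one 90% had a peak, against 85.6% of all CpG-rich genes with one, and without one the shares were 74.1% and 74.5%. Because a peak counts for every gene within reach, 201 of the 247 peaks were nearest to a member. Some partners are themselves genes of mitochondrial translation or respiration. MRPL46 and MRPS11 start 63 bp apart and shared both of their peaks, of CISD1 replicate 1 (4.38) and CPSF4L replicate 1 (6.20). MRPL36, next to the complex I gene NDUFS6, had a single peak (CPSF4 replicate 1, 4.25), and MRPL49, next to FAU, which encodes a cytosolic ribosomal protein, also had a single one (SNRPC replicate 1, 4.26). MRPL47, next to the complex I gene NDUFB5, had none.

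Summits lay close to the start sites. Counted over pairs of a peak and a gene, the nearest TSS of the gene was covered in 127 of 249 pairs at MRP genes (51.0%) and in 49.2% of all pairs. The summit was within 250 bp of that TSS in 72.7% and 65.8% of them. Its median position was 41 bp upstream at MRP genes and 5 bp upstream over all pairs. Counted per peak, the order of the covered share was the opposite, with 51.4% of member peaks and 53.2% of all promoter peaks. The median summit was then 41 bp upstream for member peaks and 5 bp downstream for all promoter peaks. In 82 pairs at MRP genes (32.9%) the summit lay 100 to 400 bp upstream, against 24.1% of all pairs. MRPS18B, MRPS12 and MRPL40 held 33 of the 82. Without these 3 members, chosen after their values were seen, 49 of 206 pairs lay there (23.8%) and the median was 2.5 bp downstream. Summits fell in introns of protein-coding genes for 38.5% of the member peaks, outside such genes for 13.8% and on exons for the rest. These places were counted for the member peaks only, so they are not set against all promoter peaks. None of the 247 peaks carried the satellite-like repeat, defined as at least 5 ATTCC or GGAAT pentamers within 100 bp of the summit (0 of 247, which allows a share of up to about 1.21%). This limit is approximate, unlike the exact intervals above, and treats the peaks as independent although many lie at the same gene. The repeat was counted at member peaks only, so whether other promoters differ was not tested.

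**Figure D4:**
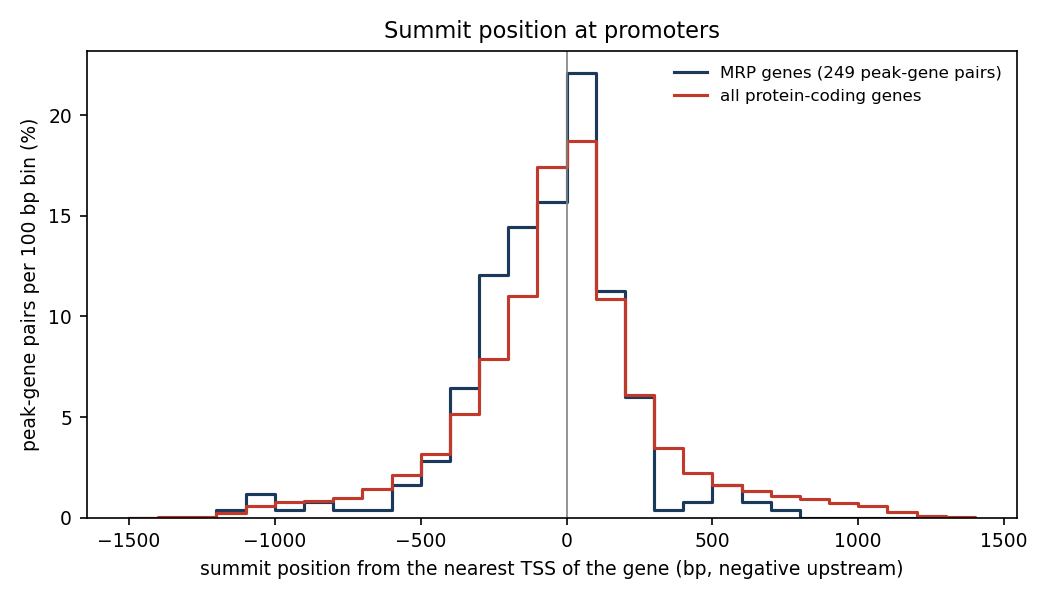
Summit position from the nearest TSS of the gene (x axis, bp, negative upstream) as the percentage of peak and gene pairs per 100 bp bin (y axis), for the 249 pairs at MRP genes and for all pairs at protein-coding genes. Both curves peak in the first 100 bp downstream, and the MRP curve is higher between 100 and 400 bp upstream (32.9% against 24.1%), where 33 of its 82 pairs come from MRPS18B, MRPS12 and MRPL40.

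Some words were more frequent in MRP promoters than in others, as shares with no test. RefSeq promoter sequences (GRCh38.p14), 250 bases before to 50 after the start, were matched for 69 members and for 15344 protein-coding genes in all. MRPL2, MRPL10, MRPL13, MRPL15, MRPL21, MRPL23, MRPL35, MRPS28 and MRPS36 were not matched. On either strand, CCGGAAG was found in 30 of the 69 (43.5%), against 14.8% of all promoters. ATGGCGG was found in 24 (34.8%), against 8.17%, and ACTACAA in 7 (10.1%), against 3.12%. CGCANGCG was found in 15 (21.7%), against 14.9%. GGGCGG was about as frequent as elsewhere, with 59.4% against 61.8%, and AGGNGGC (33.3% against 43.4%), CCAAT (29.0% against 36.6%) and TATAAA (4.35% against 9.41%) were less so.

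The words were compared between members with and without a peak, as counts with no test. CCGGAAG was in 41.5% of the 53 matched members with a peak and in 8 of the 16 without one. ATGGCGG was in 30.2% of the former and, likewise, in 8 of the latter, as was CCAAT (22.6% and 8). ACTACAA was in 3 of the 53 and 4 of the 16, and TATAAA in 3 and 0. GGGCGG (62.3% of the 53 and 8 of the 16), AGGNGGC (34.0% and 5) and CGCANGCG (22.6% and 3) were in both classes. Of the 17 members with both-replicate peaks, 12 held GGGCGG (70.6%), 9 AGGNGGC (52.9%), 8 CCGGAAG (47.1%), 6 ATGGCGG (35.3%), 4 CCAAT (23.5%), 3 CGCANGCG (17.6%), 2 TATAAA (11.8%) and 1 ACTACAA (5.88%), beside the shares of all promoters given above.

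Other nuclear genes of mitochondrial translation, in 4 lists, were counted in the same way and not tested against the MRP genes. Of 68 such genes, 52 had a peak (76.5%, against 74.4% of MRP genes) and 20 had peaks in both replicates of a ZFP (29.4%, against 21.8%). Over all genes these shares were 55.8% and 16.7%. CpG-rich promoters made up 75% of the 68 genes and 60.3% of MRP genes. Within these 84.3% had a peak and 35.3% both-replicate peaks, against 80.9% and 25.5% of the CpG-rich MRP genes. All CpG-rich genes gave 76.9% and 25.2%. All 13 peaks of SARS2 are those of MRPS12, and no other of the 68 genes shared a peak with a member; without SARS2, 51 of 67 had a peak (76.1%) and 28.4% had both-replicate peaks. All 5 mitoribosomal proteins with other symbols had a peak, led by DAP3, a GTP-binding protein of the small subunit, with 8 ZFPs. Mitochondrial aminoacyl-tRNA synthetases had peaks at 15 of 17 genes (88.2%), and both-replicate peaks at 41.2%, of which CARS2, the cysteinyl enzyme, had both replicates of 5 ZFPs. Among 29 assembly and rRNA factors 23 had a peak (79.3%) and 34.5% had both-replicate peaks, including GTPBP6, a ribosome recycling GTPase, and YBEY, an endoribonuclease, each with both replicates of 3 ZFPs. Translation factors had the lowest share of the 4 lists, with 9 of 17 (52.9%, near the 55.8% of all genes) and both-replicate peaks at 5.88%. CpG-rich promoters made up 64.7% of translation factors, 82.8% of assembly and rRNA factors, 70.6% of synthetases and 80% of proteins with other symbols. Among these CpG-rich genes, 63.6%, 87.5%, 91.7% and 100% had a peak. Both-replicate peaks were found at 9.09%, 41.7%, 41.7% and 50% of them.

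Neighbouring functional groups were counted in the same way. Cytosolic ribosomal protein genes had peaks at 58 of 89 (65.2%) and both-replicate peaks at 16.9%, and nuclear respiratory chain genes at 58 of 88 (65.9%) and at 12.5%. Over all genes these shares were 55.8% and 16.7%. CTCF peaks were found at 25.6% of MRP genes, 24.7% of cytosolic ribosomal protein genes and 14.8% of respiratory chain genes. For APEX2 the shares were 37.2%, 28.1% and 27.3%, for CISD1 32.1%, 23.6% and 26.1%, and for G2E3 28.2%, 21.3% and 19.3%. The shares were nearly the same for PHF7, with 24.4%, 25.8% and 25%, and for TEX13A, with 8.97%, 8.99% and 9.09%. The MRP genes were lowest for ZNF22, with 28.2%, 31.5% and 30.7%, and for GIN1, with 11.5%, 12.4% and 14.8%. They were highest for CPSF4, with 15.4%, 10.1% and 14.8%, for SNRPC, with 10.3%, 5.62% and 5.68%, and for ZMAT3, with 8.97%, 4.49% and 6.82%. CpG-rich promoters made up 60.3% of MRP genes, 75.3% of cytosolic ribosomal protein genes and 63.6% of respiratory chain genes. Among the CpG-rich genes of each list, 80.9%, 74.6% and 80.4% had a peak, against 76.9% of all CpG-rich genes. Both-replicate peaks were found at 25.5%, 22.4% and 16.1% of them, against 25.2% of all CpG-rich genes. None of these differences was tested.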

How the data were processed

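Cut&Run peak lists of 36 ZFPs with 2 replicates each were used, 72 lists in all, grouped by the sample labels. Lists of other ZFPs of the study were not used here. Per the submitters' processing notes, the tools were Trimmomatic 0.36, Bowtie2 2.3.5.1, Picard 0.1.8 and MACS2 2.2.7.1, with hg38. The authors aligned fragments of 10 to 700 bp, removed duplicates and called narrow peaks for each replicate against the mock IP of its own batch, and deposited the strict peaks (FDR threshold 0.05). The deposited fold is a ratio of signal over the mock IP at the summit, the deposited −log10 p and −log10 q values are those of the peak caller, and the deposited score is 10 times −log10 q with decimals dropped. The methods give a nominal depth for all libraries, and the read total and batch of each library were not used here.

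Peaks were assigned to every nuclear protein-coding gene of GENCODE 44 with a TSS within 1 kb of the nearest peak edge; Y copies of pseudoautosomal genes were left out. Replicates were joined per ZFP, and each was also counted alone. Members, lists and rules were chosen with earlier results of these data known, so no test was run: counts stand beside those of all genes and of genes with CpG-rich promoters. Named genes were the 12 members with both-replicate peaks of the most ZFPs, the leading member of each ZFP with 10 or more members, the 3 highest folds, members without a peak and members paired with a gene of another list. Others were named after their values were seen, among them MRPS36, MRPL14, MRPL27, MRPL58, MRPS24 and MRPS35. Alternatives changed the distance limit, the point of the peak, the q-value, the TSS set, the replicates, the libraries and the background. Python 3.11.15, pandas 2.3.3, scipy 1.17.1, samtools 1.23.1 and matplotlib 3.10.9 were used. On simulated data, the distance search gave the same TSSs as a full search for 1500 of 1500 peaks and no pair differed from bedtools 2.31.1. All 200 planted words were found at their position.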

Additional observations from a re-analysis of the deposited data

Results flagged for a closer look

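Noncoding loci with MRP-type symbols lie outside the counts above, and both kinds had more than 3 peaks, a fixed limit and not an expected count. The pseudogene loci had 12 peaks within 1 kb of a TSS, all at MRPL42P1, 1 of 79 such loci, in 10 ZFPs and with a highest fold of 9.44. The 5′ end of MRPL42P1 overlaps that of USP53, a protein-coding gene on the other strand. The lncRNA loci had 8 peaks at 3 of 9 loci, of which MRPL20-AS1 and MRPL45P2 had 3 each and MRPS35-DT 2, both of which also counted for MRPS35. MRPL20 itself, on the other strand from MRPL20-AS1, had none. For comparison, 20.3% of all 18866 lncRNA loci and 4.57% of all 15233 pseudogene loci of the annotation had a peak by the same rule, and the MRP-type loci gave 33.3% and 1.27%. Whether these peaks belong to the noncoding loci or to their neighbours was not tested.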

How the results depend on the processing

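Of 142 recomputed values, 94 kept their sign and moved by less than the limits used here. A further 37 moved by more, and 11 changed sign, which was counted whatever the size of the move. The limit was 1.5 times for a count and, for a difference of shares, 1 SD between the replicates of the ZFP. This SD was 3.63 percentage points for CTCF and G2E3, 4.53 for APEX2 and 5.44 for CPSF4. It was 11.8 for CISD1 and ZNF22 and 16.3 for PHF7. The background mattered for direction. With genes with CpG-rich promoters in place of all genes, and all 78 members kept, the MRP share minus the background share turned from 10.2 to -2.50 percentage points for APEX2, from 4.46 to -8.64 for CISD1, from 6.60 to -4.30 for G2E3, from 2.39 to -9.86 for ZNF22 and from 0.912 to -10.6 for PHF7. For CTCF it moved from 12.2 to 6.49 and for CPSF4 from 7.33 to 3.32. With the 47 CpG-rich members against genes with CpG-rich promoters, which was chosen after seeing the data, it was -3.51 for APEX2, -8.77 for CISD1, 3.67 for G2E3, -8.28 for ZNF22, 4.26 for CTCF, -3.08 for PHF7 and -1.42 for CPSF4. With the 31 other members against genes without CpG-rich promoters, also chosen after seeing the data, it was 28.1 for APEX2, 21.6 for CISD1, 8.62 for G2E3, 15.9 for ZNF22, 23.0 for CTCF, 4.40 for PHF7 and 19.7 for CPSF4. With the 47 CpG-rich members, ZNF22 and PHF7 changed sign by less than their SD, and so did PHF7 with all 78 members kept. The 47 members are matched to their background by the CpG-rich criterion only. They had a median of 5 annotated TSSs, against 7 for all CpG-rich genes. An opposite-strand TSS was found for 42.6% of them and for 21.9% of all CpG-rich genes. Keeping only peaks with a q-value under 0.0001 left 30 members with a peak (5897 of all genes), 6 with both replicates, a median of 0 ZFPs and 32 other mitochondrial translation genes. Members per ZFP were then 10 for APEX2, 11 for CISD1, 9 for G2E3, 12 for ZNF22, 8 for CTCF, 10 for PHF7 and 4 for CPSF4. Counts of all genes per ZFP were not made at this q-value or under the overlap rule that follows. Keeping only peaks that overlap in the other replicate left 15 members (2760 of all genes), a median of 0 ZFPs and 8 members for APEX2, 2 for CISD1, 2 for G2E3, 5 for ZNF22, 6 for CTCF, 1 for PHF7 and 2 for CPSF4. The median summit position at the members turned from -41 to 2.5 bp from the TSS without MRPS18B, MRPS12 and MRPL40, a choice made after seeing the data. A limit of 2 kb raised the median to 2 ZFPs. With each replicate left out in turn, 32 to 52 members had a peak and the median was 0 to 1 ZFPs. The ranges were 16 to 21 members for APEX2, 8 to 21 for CISD1, 11 to 15 for G2E3, 7 to 20 for ZNF22, 11 to 15 for CTCF, 1 to 19 for PHF7 and 4 to 10 for CPSF4. The lower end belonged to replicate 2 alone except for G2E3. Over all genes, replicates 1 and 2 gave 18.9% and 16.4% for APEX2, 25.4% and 6.99% for CISD1, and 12.0% and 14.7% for G2E3. They gave 24.0% and 6.61% for ZNF22 and 10.8% and 6.04% for CTCF. For PHF7 the shares were 22.9% and 1.65%, and for CPSF4 6.31% and 2.61%. The alternatives with the canonical TSS only and with overlapping peaks for the both-replicate count were chosen after seeing the data. No paired analysis was possible because the results come from no test. The causes of these moves were not tested.

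Limits follow from the design. Each ZFP has a pair of replicates, of which the longer list held a median of 1.57 times the peaks of the shorter and more than 2 times in 12 of 36 ZFPs. Read totals are not known, no mock IP list was used and folds of different lists were not tested against each other. A peak at a shared promoter counts for both genes.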

Other observations

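Some members outside the leading group had peaks of 5 or 6 ZFPs without a ZFP called in both replicates. MRPL41, MRPL24 and MRPS33 had peaks of 6 ZFPs each, with highest folds of 6.33 (SNRPC replicate 1), 6.36 (CPSF4 replicate 1) and 5.70 (G2E3 replicate 2). MRPL51 had peaks of 5 ZFPs, up to 7.22 in CTCF replicate 2, and most of its summits lay on the partner gene NCAPD2, which encodes a condensin subunit. MRPL57 had peaks of 5 ZFPs, up to 5.69 in TEX13A replicate 1, next to SKA3. MRPL12, a large-subunit protein known to bind the mitochondrial RNA polymerase, had peaks of 3 ZFPs, all in replicate 1, with folds up to 6.07 in PHF7. MRPL4 had a fold of 8.73 in ZNF22 replicate 1 and no ZNF22 peak in replicate 2.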
